A study of Sus scrofa with 9 samples.

Results

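The chemokine genes CXCL8 (also called IL8), CXCL2, CXCL12 and CCL19 of the pig esophagus are described here on 9 Affymetrix PorGene 1.0 ST arrays. They are 4 of 12217 genes with a named probe set, and were picked by symbol: of 27558 probe sets, 7 carry 1 of these symbols as their only gene symbol. CXCL8, CXCL12 and CCL19 have 1 probe set each and CXCL2 has 4. The genes were chosen because their levels run in opposite directions over the sample groups, so their levels and group differences are given as a description, with no test. Tests are given for the other ligands, receptors and regulators of the chemokine system.

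The arrays held total RNA of 3 esophageal submucosal gland (ESMG) samples, 3 samples of the overlying squamous tissue and 3 of spheroids grown from ESMG. ESMG and squamous tissue came from the same control pigs, numbers 37, 39 and 40, and the spheroids from pigs labelled 1, 2 and 3. The sources used here do not say how these relate to the others. Spheroids were grown in Matrigel low in growth factors, under Advanced DMEM/F12 with B27, N2, 10 mM HEPES and 50 ng/ml human epidermal growth factor (EGF), so culture, EGF and removal from the animal cannot be told apart. Tissue RNA and spheroid RNA were also isolated with different kits, which cannot be told apart from the groups. Values are log2 levels, where a difference of 1 is 2-fold, and 3 arrays per group limit the precision. The files give no detection calls, so a level at or under its array's lower quartile (5.36 to 5.65) may be background, and a fold against such a level is uncertain in size.

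Chemokines are small secreted proteins that steer white blood cells. CXCL8 and CXCL2 belong to the CXC chemokines that draw neutrophils through the receptor CXCR2, and epithelial cells make them when interleukin 1, tumor necrosis factor or microbial products activate NF-kappa-B. CXCL12 is made by fibroblasts, endothelium and other stromal cells without such a stimulus and binds CXCR4 and the scavenging receptor ACKR3. CCL19 is a product of lymphoid stromal cells and dendritic cells that draws cells bearing CCR7 and is removed by the scavenger ACKR4.

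CXCL8 stood lowest in squamous tissue, higher in ESMG and highest in spheroids. Its levels were 8.98, 10.24 and 10.60 in the ESMG of pigs 37, 39 and 40, 7.66, 5.55 and 6.63 in their squamous tissue, and 12.54, 13.00 and 11.95 in spheroids 1, 2 and 3. No array of a group reached the next group. Group means were 9.94 ± 0.85 in ESMG, 6.61 ± 1.05 in squamous tissue and 12.50 ± 0.53 in spheroids (SD, n = 3 each). ESMG lay 10.1-fold above squamous tissue (log2 difference 3.33, SE 0.51), and spheroids lay 5.88-fold above ESMG (2.56) and 59.2-fold above squamous tissue (5.89). Within a pig, ESMG exceeded squamous tissue by 1.33 in pig 37, 4.70 in pig 39 and 3.97 in pig 40, or 2.51-, 25.9- and 15.7-fold. Pig 37 had both the lowest ESMG level and the highest squamous level. With arrays weighted by their quality the fold of ESMG over squamous tissue was 5.34 in place of 10.1, and that of spheroids over squamous tissue 38.1 in place of 59.2. The squamous level of pig 39 lay under that array's lower quartile of 5.65, near the floor of the measurement.

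CXCL2 followed the same order with less spread. The probe set that stands for it, the brightest, read 9.80, 9.70 and 10.76 in the ESMG of pigs 37, 39 and 40, 7.38, 6.82 and 7.73 in squamous tissue, and 11.95, 12.31 and 11.93 in spheroids. Again the groups did not overlap. ESMG was 6.85-fold above squamous tissue (log2 difference 2.77, SE 0.29), spheroids 3.94-fold above ESMG (1.98) and 27.0-fold above squamous tissue (4.75). The step from squamous tissue to ESMG was 2.42, 2.87 and 3.03 in pigs 37, 39 and 40, a narrower range than that of CXCL8.

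**Figure D1:**
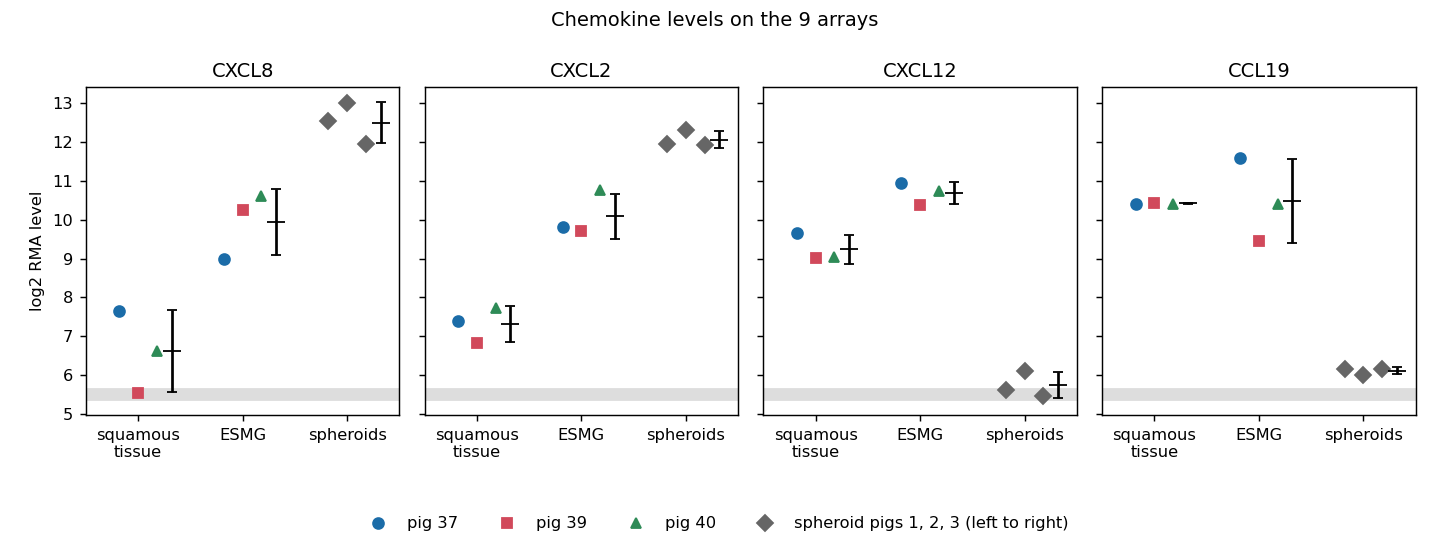
Log2 RMA level (vertical axis) of the 4 chemokines in squamous tissue, ESMG and spheroids. Each point is 1 array, shaped by pig, the black bar is the mean with SD of 3 arrays, and the grey band spans the arrays' lower quartiles (5.36 to 5.65). CXCL8 and CXCL2 climb from squamous tissue to spheroids, while CXCL12 and CCL19 lie between 5.47 and 6.17 in spheroids and at 9.02 or more in both tissues.

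The 4 CXCL2 probe sets agreed on this order but not on the size of the steps. The array annotation gives 3 of them the gene number 396594, which the RefSeq gene table of Sscrofa11.1 does not list, and 1 the number 414904, under which the table lists CXCL2. Of the 3, 2 held the same values on every array, so only 6 of the 7 probe sets are separate measurements. The third read 8.15, 8.64 and 9.44 in ESMG, 6.05, 5.57 and 6.34 in squamous tissue and 10.18, 10.51 and 10.43 in spheroids, with steps of 2.76 and 1.63, close to those of the brightest. The probe set under 414904 read 5.88, 6.40 and 7.46 in ESMG, 4.85, 4.69 and 5.65 in squamous tissue, and 9.44, 10.21 and 9.49 in spheroids. On it ESMG lay 2.87-fold above squamous tissue (1.52) and spheroids 8.75-fold above ESMG (3.13), while the whole span from squamous tissue to spheroids was 4.65, near the 4.75 of the brightest probe set. Its squamous levels in pigs 37 and 39 lay under the lower quartile of their arrays. How much of the split comes from the floor or from probes that detect a related CXC gene was not tested.

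**Figure D2:**
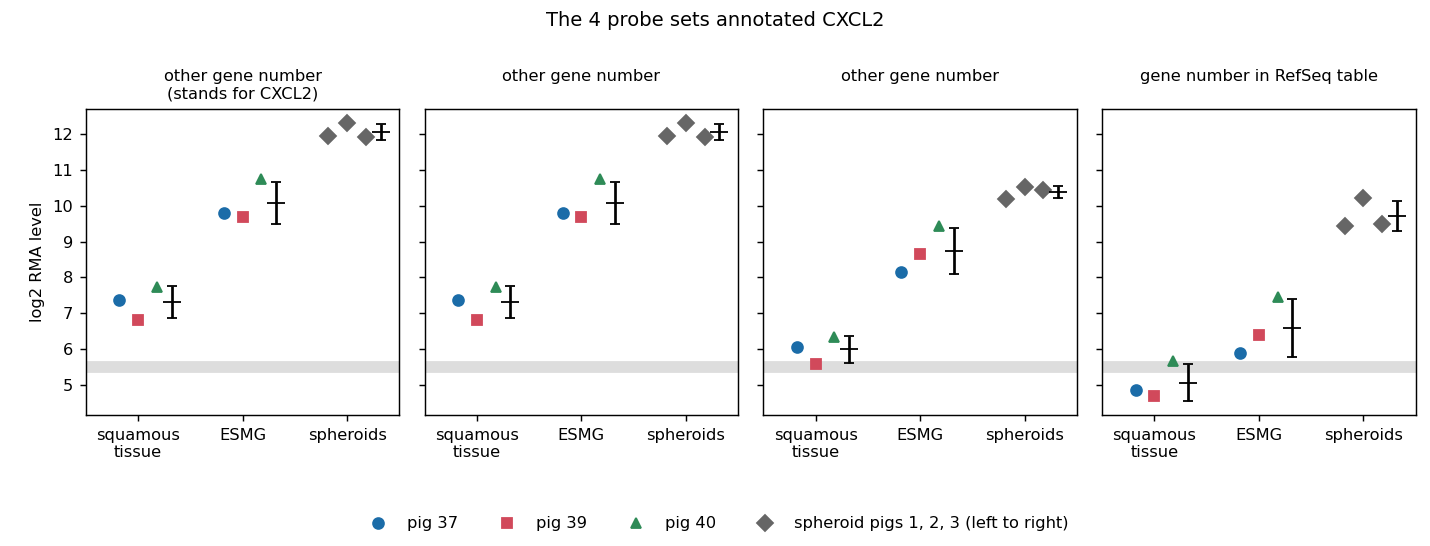
Log2 RMA level (vertical axis) of the 4 probe sets annotated CXCL2, in the same layout: points are arrays, bars the mean with SD of 3 arrays, the grey band the lower quartiles. The panels with the other gene number put ESMG nearer to spheroids than to squamous tissue, and the panel with the RefSeq gene number puts it nearer to squamous tissue, at 6.58 against 5.06 and 9.71.

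CXCL12 went the other way. Its levels were 10.94, 10.37 and 10.74 in the ESMG of pigs 37, 39 and 40, 9.67, 9.02 and 9.03 in squamous tissue, and 5.62, 6.11 and 5.47 in spheroids. The 3 groups did not overlap, with ESMG highest and spheroids lowest. ESMG was 2.72-fold above squamous tissue (log2 difference 1.44, SE 0.23), with 1.28, 1.35 and 1.71 in pigs 37, 39 and 40. Spheroids were 30.9-fold below ESMG (-4.95) and 11.4-fold below squamous tissue (-3.51). The spheroid levels lay just above the lower quartile of their arrays (5.36 to 5.44), so these folds rest on values near the floor.

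CCL19 separated spheroids from tissue but not the tissues from each other. It read 11.59, 9.45 and 10.39 in the ESMG of pigs 37, 39 and 40, 10.42, 10.43 and 10.41 in squamous tissue, and 6.17, 6.01 and 6.16 in spheroids. The squamous arrays agreed within 0.02, while the ESMG arrays spread over 2.14 on both sides of them. The mean difference between the tissues was 0.06 (SE 0.39), made of 1.18 in pig 37, -0.98 in pig 39 and -0.02 in pig 40. Leaving out the ESMG of pig 37 turned it to -0.50, and leaving out the ESMG of pig 39 raised it to 0.57, so it has no settled direction. Spheroids were 20.6-fold below ESMG (-4.37) and 19.8-fold below squamous tissue (-4.31), with no overlap.

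Set against all 12217 genes, such separations were common. Every ESMG array lay above every squamous array for 3 of the 4 chemokines and for 9.88% of all genes. Every spheroid array lay above every ESMG array for CXCL8 and CXCL2 and for 30.3% of all genes, and below for CXCL12 and CCL19 and for 21.0%. Against squamous tissue the shares of all genes were 28.6% above and 21.9% below. The rule chose the 4 genes on these contrasts, so nothing is read from their counts.

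Cell type markers moved beside CXCL12 and CCL19. A gene was called at an adjusted p under 0.05 (limma, Benjamini-Hochberg over 12217 genes) and at least a 2-fold difference. Of 16 measured fibroblast and matrix genes, 14 fell in spheroids against ESMG and the same number against squamous tissue, where 8.91% and 8.05% of all genes fell. The list's medians were -3.71 and -3.96, against 0.09 and 0.03 over all genes. Between the tissues limma called none of the 16, with 6 at an unadjusted p under 0.05. The mean level of that list was 10.42 to 10.78 on ESMG arrays, 10.21 to 10.70 on squamous arrays and 6.76 to 7.25 on spheroid arrays. In the same 2 comparisons 6 of 8 endothelial genes fell (medians -1.54 and -1.48), and 7 of 8 smooth muscle and pericyte genes (-2.99 and -3.93). Of the smooth muscle genes, SYNPO2 and PLN were also lower in ESMG than in squamous tissue. In these mixed samples, fewer cells of a type and less RNA per cell cannot be told apart, and the part of stromal cells in the CXCL12 and CCL19 levels was not tested. Between the tissues the fibroblast genes ran from -0.71 for COL6A3 to 1.03 for MFAP5, with a median of 0.18.

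Among the ESMG arrays, many leukocyte genes, like CCL19, were highest in pig 37. The mean level of 12 leukocyte genes was 8.32, 7.33 and 7.68 in the ESMG of pigs 37, 39 and 40, the same order as CCL19 (11.59, 9.45 and 10.39). Among the 3 ESMG arrays, 9 of the 12 were highest in that of pig 37. They include PTPRC, the common leukocyte antigen (9.65 against 7.76 and 8.14), and CD3E of T cells (8.48 against 6.58 and 6.88). For CD8A the lead was small, at 6.34 against 6.27 in pig 40. How many of all genes were highest in the ESMG of pig 37 was not counted, so nothing is read from the 9. The other 3 of the 12, the myeloid genes CD14, CSF1R and ITGAM, were highest in the ESMG of pig 40. So was the mean of 6 dendritic cell genes, at 7.06, 6.67 and 7.30 in pigs 37, 39 and 40. In squamous tissue the leukocyte list ranged from 7.02 to 7.57 while CCL19 stayed at 10.41 to 10.43. The part of leukocytes or dendritic cells in the CCL19 level was not tested. Of the leukocyte genes 1 rose in ESMG against squamous tissue, LCP1, beside 2.65% of all genes. Against ESMG, 6 of the 12 fell in spheroids, beside 8.91% of all genes. Against squamous tissue 4 fell and 2 rose, LCP1 and AIF1, beside 8.05% and 8.61% of all genes.

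**Figure D3:**
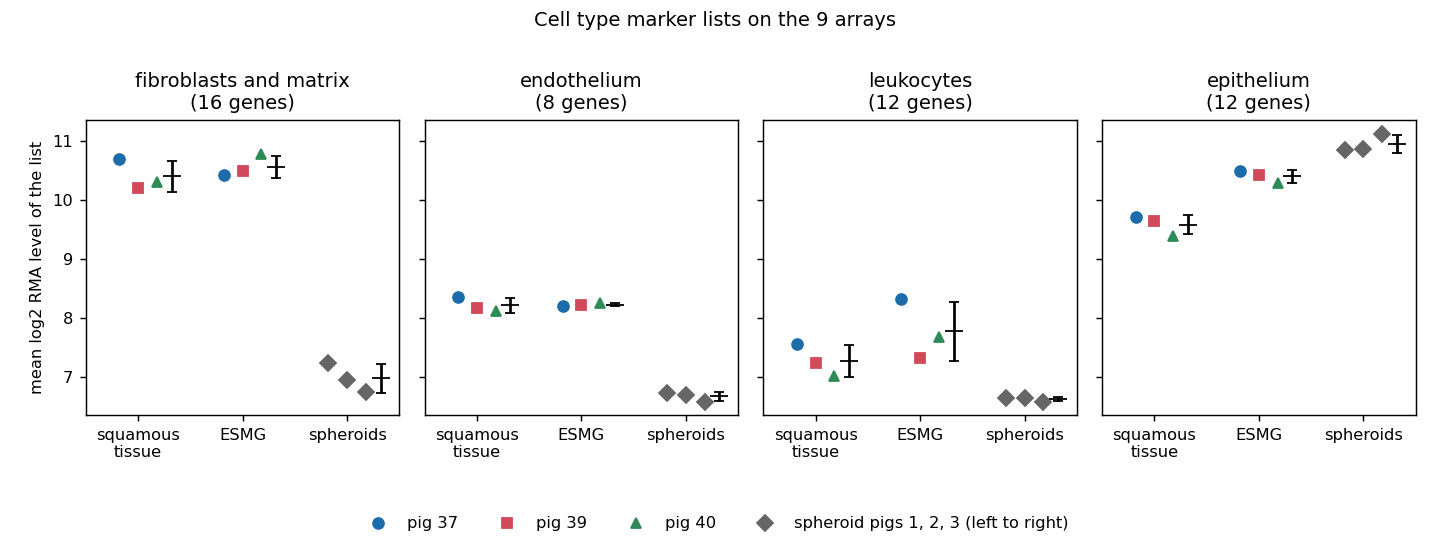
Mean log2 RMA level (vertical axis) of 4 marker lists on each array, with the number of measured genes in each title. Points are arrays by pig, and bars are the mean with SD of 3 arrays. The fibroblast list lies at 6.76 to 7.25 in spheroids and at 10.21 or more in both tissues, and the leukocyte list is highest, at 8.32, in the ESMG of pig 37.

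Some epithelial genes were also higher in ESMG and spheroids. Of 12 measured epithelial genes, 4 rose in ESMG against squamous tissue (EPCAM, KRT8, KRT18 and KRT19), 2 rose in spheroids against ESMG (KRT19 and CLDN4) and 6 against squamous tissue, where 2.65%, 7.99% and 8.61% of all genes rose. None fell by limma, with 2 lower in ESMG than in squamous tissue and 1 lower in spheroids than in squamous tissue at an unadjusted p under 0.05. The last is ESRP1, an epithelial splicing factor (-0.61, limma adjusted p = 0.0156, under the 2-fold minimum). The mean level of the 12 was 10.29 to 10.50 in ESMG, 9.40 to 9.71 in squamous tissue and 10.85 to 11.13 in spheroids. The basal keratin KRT5 read 12.42, 13.01 and 13.12 in the ESMG of pigs 37, 39 and 40, 13.15 to 13.39 in squamous tissue and 13.89, 13.69 and 13.69 in spheroids, so it did not single out squamous tissue here. Of 5 measured neutrophil genes limma called none between the tissues (1 at an unadjusted p under 0.05) or between spheroids and ESMG (2 at that level). Against squamous tissue 1 fell in spheroids, CXCR2, beside 8.05% of all genes. MPO, the granule enzyme that marks neutrophils, was between 5.24 and 5.86 on every array, near the lower quartile. The other members of the list were not near it. S100A8 read 10.39 to 11.41, S100A9 7.77 to 10.45 and S100A12 12.37 to 13.03 over all arrays, spheroids included. Which cells these levels come from was not tested. Of 6 dendritic cell genes, FSCN1 rose in spheroids against ESMG and squamous tissue, beside 7.99% and 8.61% of all genes. CD83 fell against ESMG, beside 8.91% of all genes.

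The wider chemokine system was described with 5 lists, of which 85 of 125 symbols were measured. Of the 85 genes, 5 rose in ESMG against squamous tissue (5.88%, against 3.06% of all genes called). None of them fell by limma, with 4 lower at an unadjusted p under 0.05, and over all genes 2.65% rose and 0.409% fell. In spheroids, 13 rose and 15 fell against ESMG (32.9%, against 16.9% of all genes, 7.99% rising and 8.91% falling). Against squamous tissue 19 rose and 12 fell (36.5%, against 16.7% of all genes, 8.61% rising and 8.05% falling). With pig as a block, 9 of the 85 were higher in ESMG than in squamous tissue: CCL2, CCL11, ICAM1 and VCAM1 joined AMCF-II, CCL14, CCL28, TLR2 and DPP4. That fit called 3.25% of all genes. With pig as a random block (correlation -0.149) the count was 5 and none of these 4 was called (adjusted p 0.136 to 0.30 by limma), beside 2.74% of all genes.

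Receptors for the 4 chemokines were measured in part. Of 13 measured chemokine receptors limma called none between the tissues, with 2 at an unadjusted p under 0.05. Of these ACKR2, at 0.66, had an adjusted p of 0.0464 but was under the 2-fold minimum. CXCR1 was not analysed here. ACKR3, the scavenger of CXCL12, was the receptor that rose in spheroids. It read 8.46, 8.28 and 9.04 in ESMG, 8.93, 8.83 and 8.90 in squamous tissue and 10.63, 10.33 and 10.21 in spheroids, 3.47-fold above ESMG (log2 1.79, SE 0.19, limma adjusted p = 2.26e-05) and 2.83-fold above squamous tissue. Every spheroid array lay above every tissue array, the opposite of CXCL12. CXCR4, the signalling receptor of CXCL12, was at 7.84 ± 0.50 in ESMG, 7.29 ± 0.31 in squamous tissue and 7.50 ± 0.39 in spheroids (SD, n = 3 each), with overlapping groups and limma adjusted p of 0.304 to 0.596.

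ACKR4, the scavenger of CCL19 and CCL21, fell 4.40-fold in spheroids against ESMG (-2.14) and 3.25-fold against squamous tissue (-1.70). It shared the direction of CCL19, with 2 of 3 spheroid levels at or under the lower quartile. CCR7, the signalling receptor of both ligands, lay between 6.95 and 7.64 on all arrays and was not called in any comparison (limma adjusted p from 0.163 to 0.904). ACKR1, which binds inflammatory chemokines on venules and red cells, fell 8.03-fold in spheroids against ESMG and 6.81-fold against squamous tissue. ACKR2, a scavenger of inflammatory CC chemokines on lymphatic vessels, fell 5.67-fold and 3.59-fold. CXCR2, the receptor of CXCL8 and CXCL2, read 7.19, 7.02 and 7.22 in ESMG, 7.86, 7.93 and 7.35 in squamous tissue and 6.40, 6.38 and 6.22 in spheroids. Its group order was thus opposite to that of its ligands, but only 1 of its steps was called. It was 2.6-fold lower in spheroids than in squamous tissue (log2 difference -1.38, limma adjusted p = 4.96e-05). Its difference of -0.81 from ESMG was under the 2-fold minimum. Between the tissues its step of -0.57 was not called (limma adjusted p = 0.0726).

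Among the other ligands, AMCF-II, a pig neutrophil chemokine related to human CXCL5 and CXCL6, shared the step of CXCL8 between the tissues. It read 7.17, 8.98 and 9.07 in the ESMG of pigs 37, 39 and 40, 6.51, 5.64 and 5.54 in squamous tissue and 8.75, 9.43 and 8.47 in spheroids. ESMG was 5.71-fold above squamous tissue (log2 2.51, SE 0.46, limma adjusted p = 0.00728) and spheroids 7.96-fold (2.99). Against ESMG, spheroids showed a difference of 0.48 (SE 0.46) with overlapping arrays. The squamous level of pig 39 (5.637) lay under its array's lower quartile of 5.646, and that of pig 40 (5.535) just above its own of 5.531. The folds over squamous tissue are thus uncertain in size. As for CXCL8, pig 37 had the smallest step between its tissues, 0.66 against 3.34 and 3.53.

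CCL28, a mucosal chemokine that attracts antibody-producing cells, was the ligand with the largest tissue difference of the 25 measured. It read 11.12, 10.68 and 9.85 in ESMG, 6.64, 5.93 and 5.57 in squamous tissue and 7.06, 7.75 and 7.62 in spheroids. ESMG was 22.7-fold above squamous tissue (log2 4.50, limma adjusted p = 2.22e-05), with 4.48, 4.76 and 4.28 in pigs 37, 39 and 40. Spheroids were 8.41-fold below ESMG (-3.07) and 2.70-fold above squamous tissue (1.43). CCL28 thus shared the gland step of CXCL8 and CXCL2 and, between ESMG and spheroids, the direction of CXCL12. With array weights its rise in spheroids over squamous tissue was 0.74, under the minimum.

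CCL20, which draws cells bearing CCR6 to epithelium, and CCL2, which draws monocytes, rose in spheroids against squamous tissue, 6.34-fold (2.66, limma adjusted p = 0.0072) and 4.21-fold (2.08, limma adjusted p = 0.0143). CCL20 spread widely in ESMG, at 5.45, 7.04 and 8.88 in pigs 37, 39 and 40, and spheroids exceeded ESMG past the threshold without the ESMG array of pig 40 (2.39) and with array weights (1.85), but not in the fit of all arrays (1.51). For CCL20, 1 of 3 ESMG levels and 1 of 3 squamous levels lay at or under the lower quartile. The size of its differences is thus uncertain. The CCL2 call was lost without spheroid array 2 (1.54, adjusted p = 0.0644 by limma) or the squamous array of pig 39 (1.47, adjusted p = 0.0602 by limma). Within pigs, CCL2 was 1.19, 1.70 and 1.57 higher in ESMG than in squamous tissue. It was not called in that comparison (limma adjusted p = 0.192) but passed with pig as a block (limma adjusted p = 0.00187). CCL11, an eosinophil chemokine, was 2.78, 1.28 and 1.08 higher within pigs 37, 39 and 40 (limma adjusted p = 0.0799, and 0.0133 with the block). It also passed without the ESMG array of pig 39 (2.16) or with array weights (1.76). Its squamous levels were near the floor, at 5.62, 4.95 and 5.68 in pigs 37, 39 and 40. That of pig 39 lay under the lower quartile, so the size of the CCL11 steps is uncertain.

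Other ligands fell in spheroids, the direction of CXCL12 and CCL19. CCL14 fell 7.99-fold against ESMG (-3.00) and 3.19-fold against squamous tissue (-1.67), and was 2.51-fold higher in ESMG than in squamous tissue (1.33), so its groups had the same order as those of CXCL12. Its tissue step was 0.98, under the minimum, with array weights. CXCL9 and CXCL10, induced by interferon gamma, fell 6.02-fold and 3.31-fold against ESMG and 4.34-fold and 2.91-fold against squamous tissue. All 3 spheroid levels of CXCL9 (4.17, 4.11 and 4.47) lay under the lower quartile, so the size of its folds is uncertain. For CCL14, 1 of 3 spheroid levels did. CCL21, which shares CCR7 with CCL19, fell 3.30-fold in spheroids against squamous tissue (-1.72). Against ESMG its difference of -0.91 was under the minimum, and it passed without the ESMG array of pig 39 (-1.14) or spheroid array 2 (-1.01). In all 17 of the 25 ligands were called in no comparison, among them the epithelial CXCL14 and CXCL16. Of all genes, 3.06% were called between the tissues, 16.9% between spheroids and ESMG and 16.7% between spheroids and squamous tissue. The share of all genes called in no comparison was not counted, so nothing is read from the 17. CXCL11, also among the 17, is induced with CXCL9 and CXCL10 but had the opposite sign in spheroids, 1.10 above ESMG (limma adjusted p = 0.14) and 1.39 above squamous tissue (limma adjusted p = 0.067). Its difference from squamous tissue passed when spheroid array 2 (1.97), pig 37's ESMG (1.39) or pig 37's squamous tissue (1.76) was left out, and its difference from ESMG when either of the first 2 was (1.68 and 1.67). With array weights both differences passed (1.29 and 1.26).

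**Figure D4:**
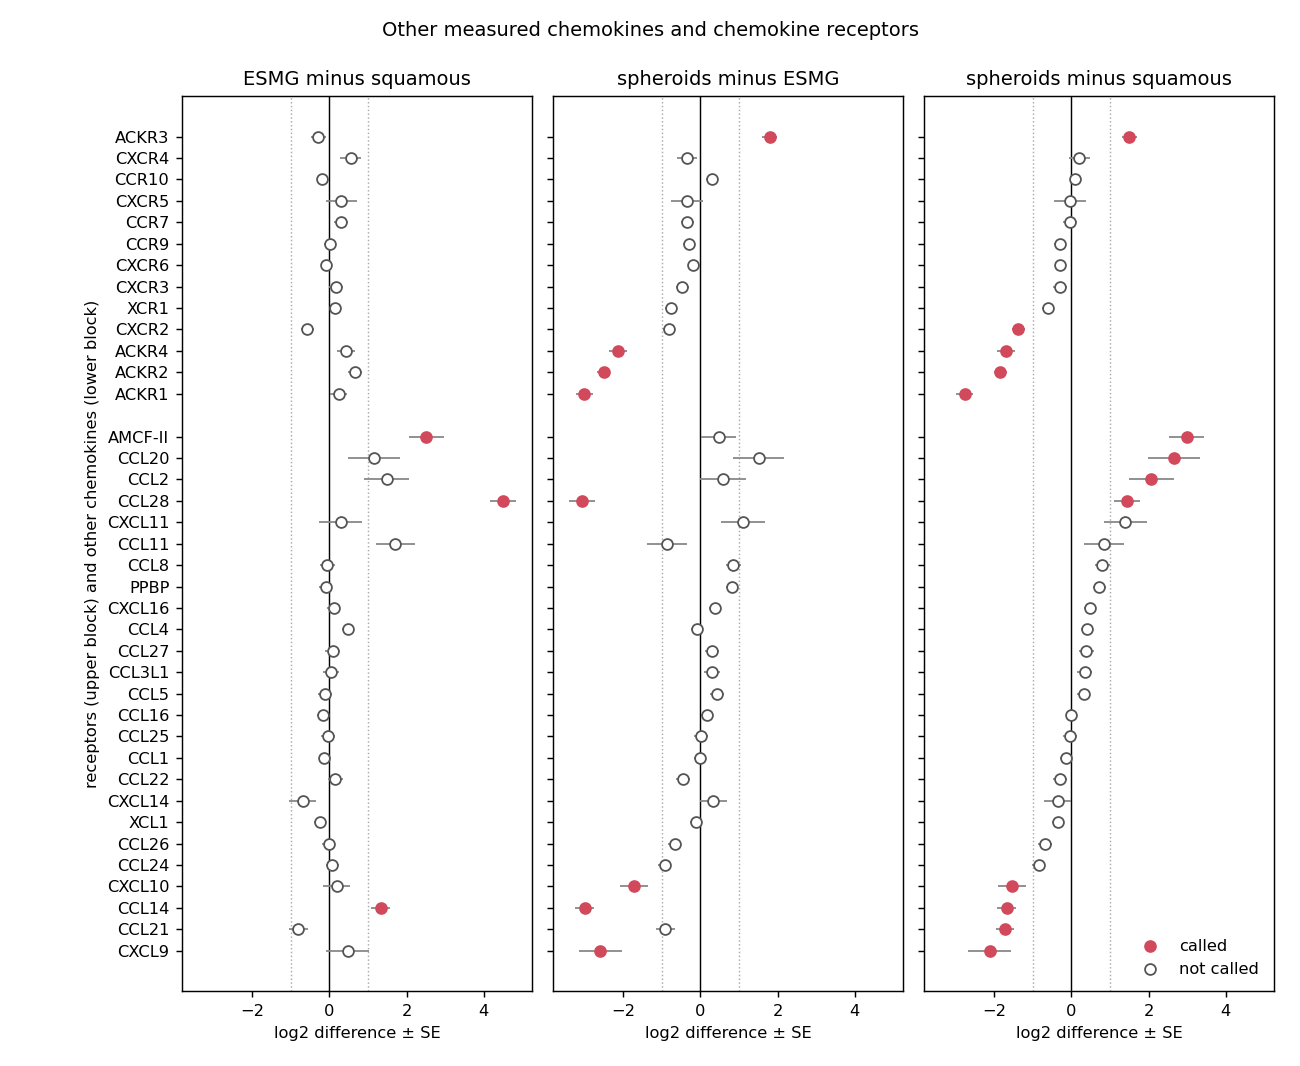
Log2 difference with its SE (horizontal axis) of the 13 measured receptors (upper block) and 25 other measured chemokines (lower block) in the 3 comparisons. Filled points were called by limma, and dotted lines mark the 2-fold minimum. CCL28 leads the difference between the tissues, and ACKR3 stands alone among receptors above the line in spheroids.

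Genes of the interleukin 1, tumor necrosis factor, interleukin 17 and NF-kappa-B systems, which control CXCL8 and CXCL2, were called in part. Of 26 measured, 8 rose and 3 fell against ESMG, where 7.99% of all genes rose and 8.91% fell, and 15 were not called (median 0.16, against 0.09 over all genes). Against squamous tissue 9 rose and 1 fell, beside 8.61% and 8.05% of all genes, and 16 were not called (median 0.35, against 0.03). The largest rises were in PTGS2, the inducible prostaglandin synthase, 14.8-fold over ESMG and 13.3-fold over squamous tissue, the cytokine IL18 (7.72- and 11.1-fold) and the cytokine LIF (5.19- and 5.28-fold). For PTGS2 1 of 3 ESMG levels, and for IL18 1 of 3 squamous levels, lay at or under the lower quartile. The folds of PTGS2 over ESMG and of IL18 over squamous tissue are thus uncertain in size. PTGS2 was at 6.01 ± 0.79 in ESMG, 6.17 ± 0.12 in squamous tissue and 9.90 ± 0.91 in spheroids (SD, n = 3 each), with no step between the tissues like that of CXCL8 (-0.15, SE 0.43). IL1A, TNFAIP3, RELA, IL17RA and IL33 were the others that rose against both tissues, and ICAM1 rose against squamous tissue. These 6 are named because they complete the count. TNFAIP3, a feedback inhibitor of NF-kappa-B, had the group order of CXCL8: 6.66 ± 0.35 in squamous tissue, 7.45 ± 0.40 in ESMG and 8.82 ± 0.09 in spheroids (SD, n = 3 each). Its step between the tissues was not called (0.80, limma adjusted p = 0.0554). NFKBIA, another feedback inhibitor, lay between 9.56 and 10.48 on all arrays and was not called. The cytokine gene TNF was lower in spheroids, by -0.86 against ESMG (limma adjusted p = 0.00118) and -0.44 against squamous tissue (limma adjusted p = 0.0467), under the 2-fold minimum. In each of these comparisons 5 of the 26 were lower at an unadjusted p under 0.05.

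The subunit REL fell 2.19-fold in spheroids against ESMG and 2.26-fold against squamous tissue, while the subunit RELA rose 2.28-fold and 2.09-fold. RELA passed the 2-fold minimum narrowly against squamous tissue and missed it without spheroid array 2 (0.94), without the squamous array of pig 40 (0.96), with cyclic loess (0.90) or with quantile normalization (0.92). The interleukin 1 receptor IL1R1 fell 2.04-fold and the endotoxin receptor TLR4 2.01-fold against ESMG, and both lay at the minimum. The IL1R1 call was lost when the ESMG of pig 37 (-0.71), spheroid array 1 (-0.86) or spheroid array 2 (-0.94) was left out, and the TLR4 call on leaving out the ESMG of pig 39 (-0.96) or 40 (-0.97) or spheroid array 1 (-0.80). With equal array medians they were also under the minimum, at -0.92 and -0.90. ICAM1 lost its call without spheroid array 2 (1.13) or the squamous arrays of pig 37 (1.29) or 39 (1.00). Between the tissues, 1 of the 26 was called, TLR2, a receptor for bacterial lipoproteins, 2.10-fold higher in ESMG (1.07). Over all genes 2.65% rose and 0.409% fell in that comparison. With the mean of its probe sets TLR2 stood at 0.89, under the minimum.

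Of 12 measured genes of lymphoid stroma and lymphotoxin signalling, the setting in which CCL19 is known, limma called none between the tissues, with 1 at an unadjusted p under 0.05 and a median of 0.14. With the block VCAM1 was called. In spheroids 1 rose and 3 fell against ESMG, beside 7.99% and 8.91% of all genes. Against squamous tissue 1 rose and 2 fell, beside 8.61% and 8.05%. The list's medians were -0.31 and -0.24, against 0.09 and 0.03 over all genes. The leukocyte adhesion molecule VCAM1 fell 4.73-fold and 2.25-fold, and CH25H, which makes 25-hydroxycholesterol, 2.37-fold and 2.36-fold. The VCAM1 fall against squamous tissue was lost without spheroid array 1 (-0.84) or the squamous arrays of pig 37 (-1.07) or 40 (-0.91). IL7R, the interleukin 7 receptor of lymphocytes, fell 2.07-fold against ESMG (limma adjusted p = 0.0389), but stood at -0.53 once the ESMG of pig 37 was dropped, and lost its call under 10 of 17 settings. All 3 of its spheroid levels and 2 of 3 ESMG levels lay under the lower quartile. BST1, a surface enzyme of stromal and myeloid cells, was the 1 that rose, 6.26-fold over ESMG and 7.59-fold over squamous tissue. The lymphotoxin genes LTA, LTB and LTBR were called in no comparison.

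Genes that cut or hold chemokines outside cells were the last list, with 9 measured. DPP4, a peptidase that inactivates CXCL12, was 4.24-fold higher in ESMG than in squamous tissue (log2 2.09, limma adjusted p = 0.000205), and fell 3.73-fold in spheroids against ESMG (-1.90). It read 7.38, 7.37 and 6.54 in ESMG, 5.09, 5.04 and 4.90 in squamous tissue and 4.99, 5.22 and 5.38 in spheroids. DPP4 and CXCL12 were thus both highest in ESMG. All 3 squamous levels of DPP4 and 2 of its 3 spheroid levels lay at or under the lower quartile, so its folds are uncertain in size and a difference between these groups could not be seen. The gelatinase MMP2 fell 9.29-fold and 9.23-fold in spheroids against ESMG and squamous tissue, and the gelatinase MMP9 rose 5.65-fold and 5.46-fold. SDC1, a heparan sulfate proteoglycan of epithelium, rose 4.07-fold and 2.86-fold, and EXT1, which builds heparan sulfate, 2.28-fold and 2.96-fold. SDC4 rose 3.60-fold against squamous tissue and was not called against ESMG (0.90). It was 1.27 higher in ESMG than in squamous tissue, with a call, without the squamous array of pig 37, and passed against ESMG without the ESMG array of pig 37 (1.03) or with equal array medians (1.01).

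In the RefSeq annotation of Sscrofa11.1, CXCL8 and CXCL2 lie on the same chromosome with 4 protein-coding genes between them, 3 of which were measured. From CXCL8 these are AMCF-II, PPBP and a gene known only by a locus number. PPBP, a platelet chemokine, lay between 0.73 and 0.82 higher in spheroids than in either tissue, under the minimum, and differed by -0.09 between the tissues. AMCF-II, next to CXCL8, is described above. RASSF6, next to CXCL8 on its other side, was 2.63-fold higher in spheroids than in squamous tissue (limma adjusted p = 0.00884). Between the tissues it differed by 1.30 and was not called (limma adjusted p = 0.0597). On the far side of CXCL2 lie MTHFD2L, EPGN and the EGF receptor ligands EREG and AREG, EPGN being another such ligand that was not measured. MTHFD2L was 2.16-fold higher in spheroids than in squamous tissue (limma adjusted p = 0.00247) and was called in no other comparison. EREG rose 8.50-fold and AREG 66.9-fold in spheroids against ESMG, with 2 of 3 ESMG levels of AREG under the lower quartile. Neither was called between the tissues, where CXCL2 differed 6.85-fold. CCL21 is the direct neighbour of CCL19, with a difference of -0.81 between ESMG and squamous tissue (limma adjusted p = 0.0806), and CCL27, on the other side, was called in no comparison. FRMD3, also near CCL19, fell 2.56-fold in spheroids against ESMG and 3.05-fold against squamous tissue. Of the measured neighbours of CXCL12 only RASSF4 was called. It was 2.19-fold higher in ESMG (limma adjusted p = 0.00385) and 2.03-fold higher in spheroids (limma adjusted p = 0.000941) than in squamous tissue. Against squamous tissue, 3.06% of all genes were called in ESMG and 16.7% in spheroids, and 16.9% between spheroids and ESMG. Nothing is read from the calls among neighbours. These neighbours were looked up after the values were seen.

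Genes most like each chemokine were ranked by the root mean square difference between log2 levels centred on each gene's mean over the 9 arrays, among 11077 other named genes. CXCL8 was nearest to GABRP, a GABA receptor subunit (0.62), SPP1, the matrix protein osteopontin (0.65), and CXCL2 (0.71). CXCL2 was nearest to the pantetheinase VNN2 (0.51), the keratin KRT19 (0.52) and SPP1 (0.62). CXCL12 was nearest to the complement protease C1S (0.35), fibrillin FBN1 (0.38) and lactoperoxidase LPO of serous gland cells (0.44). CCL19 was nearest to FGL2 (0.47), the MHC class II gene SLA-DQA1 (0.50) and the ubiquitin-like UBD (0.54). CXCL12 and CCL19 differed from each other by 0.73, and the pairs across the 2 directions by 3.64 to 4.37. The 4 chemokines were chosen for opposite patterns, so small differences within a direction and large ones across follow from the choice. All the ranked genes share the same 9 arrays.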

How the data were processed

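The deposited values are log2 RMA levels that the authors made with the full gene-level RMA workflow of Affymetrix Expression Console, per the labels. RMA makes array distributions alike, so it hides a difference in total RNA, and it flattens folds of dim probe sets. The sources used here name no genome build, and no coordinates or sequences are printed. The submitters' processing notes also list Transcriptome Analysis Console 3.0, without a role. All 9 columns matched a sample (0 left over).

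Of 27558 probe sets, 13157 had exactly 1 symbol, 523 several and 13878 none. Of the 13157, 12841 matched the RefSeq table by gene number. The brightest probe set stood for a gene (881 genes had several). Limma 3.58.1 in R 4.3.3 (statmod 1.5.0) fitted group means to all 9 arrays, leaving 6 residual degrees of freedom. Calls were two-sided. Python 3.11.15, pandas 2.3.3, numpy 2.4.6 and matplotlib 3.10.9 made tables and plots. The fit was tested on simulated data.

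The 4 genes, the 12 gene lists with 216 symbols (5 of the chemokine system and 7 of cell types) and the rules were chosen with earlier results of these data known. Named were all called ligands and receptors, the receptors of the 4 genes, the 3 largest called rises and falls of the other lists and the 3 nearest patterns. Other genes named (such as CCL11, CXCL11, NFKBIA, SDC4, the lymphotoxin genes, cell type markers and genomic neighbours) were chosen after their values were seen. Same-numbered ESMG and squamous samples come from the same pig. Their deviations from the group means correlated, over genes, by 0.42, -0.15 and -0.17 in pigs 37, 39 and 40. Alternatives were other normalizations, array weights, gene filters, probe set rules, pig blocks and leaving out each array.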

Additional observations from a re-analysis of the deposited data

How the results depend on the processing

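Over 20 alternatives and 1 chosen after seeing the data, 221 of 227 recomputed differences of the 4 chemokines moved by less than 1 SD of the replicates, and none larger than 2-fold changed sign. CXCL2 under the RefSeq gene number, the added choice, gave 1.52 for ESMG over squamous tissue and 3.13 for spheroids over ESMG. Against squamous tissue, CXCL12 in spheroids stood at -3.86 with array weights, and CCL19 at -4.18 with equal array medians, -4.47 with cyclic loess and -4.24 with quantile normalization, moves larger than its small SD. Leaving out 1 array gave 2.80 to 3.85 for CXCL8, 2.44 to 2.98 for CXCL2, 1.31 to 1.66 for CXCL12 and -0.50 to 0.57 for CCL19 in ESMG over squamous tissue.

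The 374 genes called between the tissues became 276 to 569 when 1 array was left out, the highest without the ESMG array of pig 40. With all probe sets tested the counts were 604, 4153 and 4129 against 374, 2065 and 2035, since more features were tested. The replicate block (pig as a fixed effect, 2 residual degrees of freedom) raised the called genes of the chemokine system between the tissues from 5 to 9 and ended none of the 5. Equal array medians moved the median of all genes in spheroids from 0.09 to 0.20 against ESMG and from 0.03 to 0.16 against squamous tissue, and the share of calls that were higher from 47.3% to 57.1% and from 51.7% to 62.2%. Cyclic loess moved these shares the other way, to 37.8% and 45.7%. Of 64 calls on genes of the chemokine system, 54 held in every fit that tested them and 10 were lost in at least 1. Precision is limited by 3 arrays per group and by signal near the floor. This holds, among others, for CXCL12 and CCL19 in spheroids, CXCL8, CCL28 and IL18 in squamous tissue, and PTGS2 in ESMG. It also holds for CXCL9 and ACKR4 in spheroids, and for DPP4 in squamous tissue and spheroids.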

Other observations

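Some inflammatory genes, picked out after their values were seen, were highest in pig 40 in both tissues. IL6 read 7.93 in the ESMG and 7.08 in the squamous tissue of pig 40, and between 5.04 and 5.75 in both tissues of pigs 37 and 39. NFKBIZ, an NF-kappa-B cofactor, was also highest there, at 9.97 in ESMG and 9.21 in squamous tissue, against 8.72 and 9.05 in the ESMG and 8.34 and 8.21 in the squamous tissue of pigs 37 and 39. CXCL2 shared this order, with pig 40 highest in both tissues (10.76 and 7.73), while CXCL8 was highest in pig 40 in ESMG and in pig 37 in squamous tissue. IL6 in spheroids was 5.13 to 5.87, with spheroid array 1 (5.87) above the range of pigs 37 and 39. Of the IL6 levels, 1 in ESMG, 2 in squamous tissue and 2 in spheroids lay at or under the lower quartile. The size of the difference from pig 40 is thus uncertain. Other genes of the same list did not share this order. In ESMG, IL1R1 read 9.79, 9.08 and 8.60 and IL33 6.45, 5.79 and 5.34 in pigs 37, 39 and 40, so both were lowest in pig 40. How many genes of the list, or of all genes, were highest in pig 40 in both tissues was not counted. Nothing is therefore read from the genes picked. The levels are values of single animals, and no test was made.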
